A study of Mus musculus with 2 samples.

Results

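The ATP-binding cassette (ABC) transporters were followed in AML12 cells, hepatocytes of the mouse that grow as a non-transformed line, as the protein-coding genes with symbols of the Abca to Abcg subfamilies. Of 50 such genes in a table of 35275, 33 had at least 10 reads over both libraries and were kept, and the other 17 had fewer. By subfamily, 12 members (Abca and Abcg) were placed with the lipid transporters, 14 (Abcb and Abcc) with the drug and bile transporters, 3 (Abcd) with the peroxisomal transporters and 4 (Abce and Abcf) with the soluble proteins of the family. The control AML12 cells were untreated, and the senescent AML12 cells had received repeated sublethal doses of hydrogen peroxide (H2O2). Both groups came from the same line, which is labelled as liver of a male CD-1 mouse 3 months old and carries a transgene for human TGF-alpha, and both grew in medium with serum, insulin, transferrin, selenium and dexamethasone. RNA of 3 samples was pooled into 1 library per condition. No difference between the conditions therefore had a replicate check, and each interval given here covers counting error only.

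ABC proteins bind and hydrolyse ATP through paired nucleotide-binding domains, and most of them use this to move a substrate across a membrane. In hepatocytes, members at the canalicular membrane secrete bile salts, phospholipid, sterols and conjugated bilirubin into bile, and members at the basolateral membrane return conjugates to blood. Other members load lipid onto apolipoproteins, import fatty acyl-CoA into peroxisomes or serve mitochondria. The Abce and Abcf proteins have the ATP-binding domains but no membrane-spanning part, and act on ribosomes.

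The control library held 28021941 reads and the senescent library 25738075, with 17403 and 17592 genes detected. Hepatocyte genes were present in both libraries, with Alb (albumin) at 32076 control and 2917 senescent reads and Hnf4a at 8187 and 7705, but Asgr1, the asialoglycoprotein receptor, had 2 and 1. Of the 8 bile duct markers, Krt19 had 22885 and 19177 reads. The macrophage markers Adgre1, Clec4f, Marco and Timd4 were at 0 in both libraries, while Cd14 had 5551 and 1879 reads, most of the 5628 and 2035 of the 9 macrophage markers, and Ptprc had 27 and 76 and Csf1r 15 and 40. The 10 fibroblast markers summed to 27 and 9 reads, and the 8 endothelial markers to 14 and 38. Fewer cells of a type and less RNA per cell cannot be told apart in these libraries.

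Senescent AML12 cells had more Abcc2 and less of a group of neighbouring Abca genes than control AML12 cells, whereas most of the family lay within the threshold of the study. Higher and lower stand here for a log2 ratio of senescent over control reads past 1.5 in size with a 95% interval that leaves out 0. By this measure 3 members were higher (Abcc2, Abcb11 and Abca4), against 2.71% of all 14383 genes with at least 10 reads, and 4 were lower (Abca6, Abca8b, Abca8a and Abcc6), against 5.60%. The other 26 were not called. In either direction 21.2% of the members were called, beside 8.31% of all genes. Counting only the interval, 11 members lay above 0 and 15 below, that is 33.3% and 45.5%, beside 34.0% and 34.6% of all genes. The median log2 ratio was -0.24 over the members and -0.02 over all genes.

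**Figure D1:**
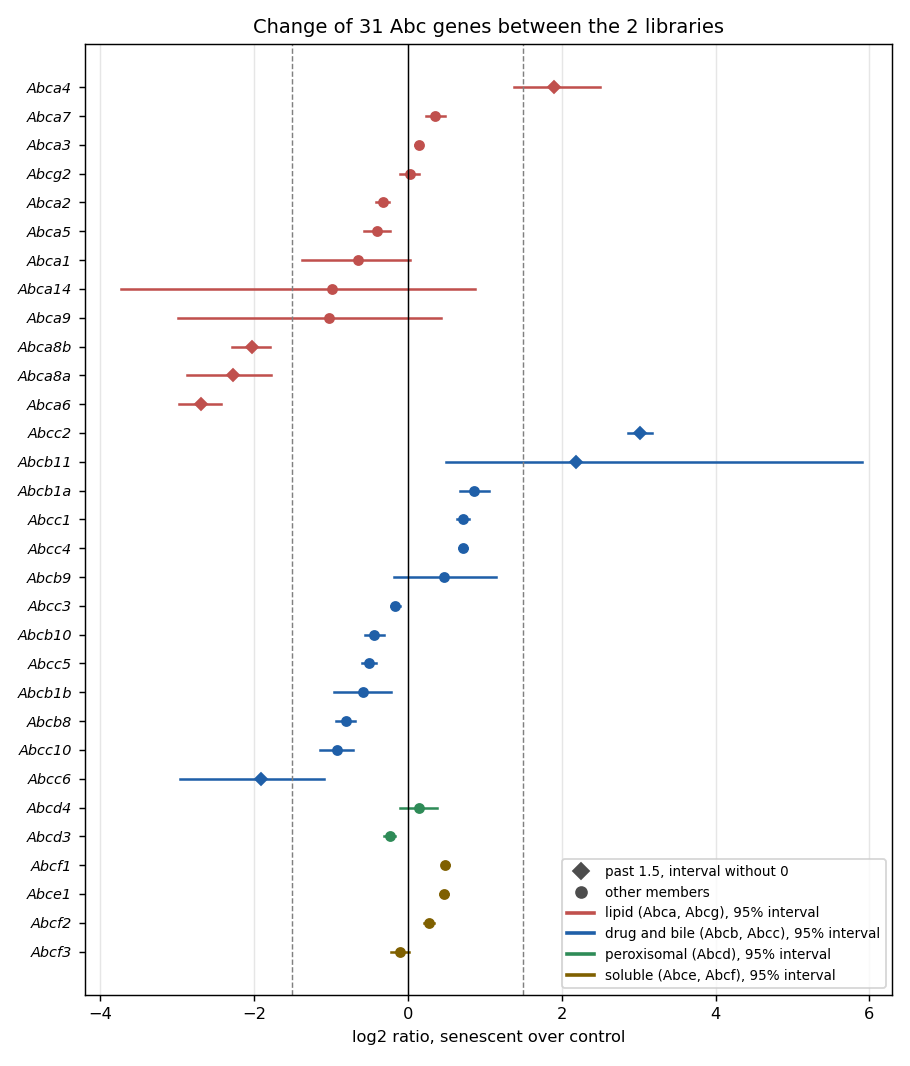
Log2 ratio of senescent over control reads for 31 of the Abc genes, with bars for the 95% interval of counting error, dashed lines at the threshold of 1.5 on both sides, and colours for the 4 classes. Diamonds mark the 7 genes past the threshold, from Abca6 at -2.69 to Abcc2 at 3.01; the soluble and peroxisomal genes shown lie within it.

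The classes differed in their middle and their spread. The median log2 ratio was -0.52 for the lipid transporters, -0.30 for the drug and bile transporters, -0.24 for the peroxisomal transporters and 0.37 for the soluble proteins. The lipid transporters ranged from -2.69 to 1.90, with 1 member higher and 3 lower. The drug and bile transporters ranged from -1.90 to 3.01, with 2 members higher and 1 lower. Neither the peroxisomal nor the soluble members held a called gene, and the soluble members ranged from -0.10 to 0.49. Without 5 lipid members that lie together on chromosome 11, the median of the 7 others was 0.02. The median of the drug and bile transporters turned to 0.15 when symbols with as little as 1 read were let in. The genes of a class are not replicates of a condition, so no test of the classes was made.

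The family was also described by level, that is reads per kilobase of merged exons on TMM-scaled library sizes (RPKM), since reads alone depend on gene length. The highest levels in both libraries were those of Abcf2, at 55.0 in control and 66.4 in senescent cells, and of Abcf1, at 42.8 and 60.1. Abcc3 came next in control cells at 34.2, ahead of Abce1 at 31.4. In senescent cells Abce1 came next at 43.4, ahead of Abcc4 at 37.6. The counting intervals of these neighbours in the order did not overlap within either library. The order also depends on merged exons as the length and was not redone with the longest transcript. Summed over the members, the level was 343 in control and 381 in senescent cells, and the soluble proteins took 41.7% of it in control and 47.9% in senescent cells. The share of the lipid transporters was 17.7% and 14.1%, that of the drug and bile transporters 34.1% and 33.1%, and that of the peroxisomal transporters 6.38% and 4.90%.

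**Figure D2:**
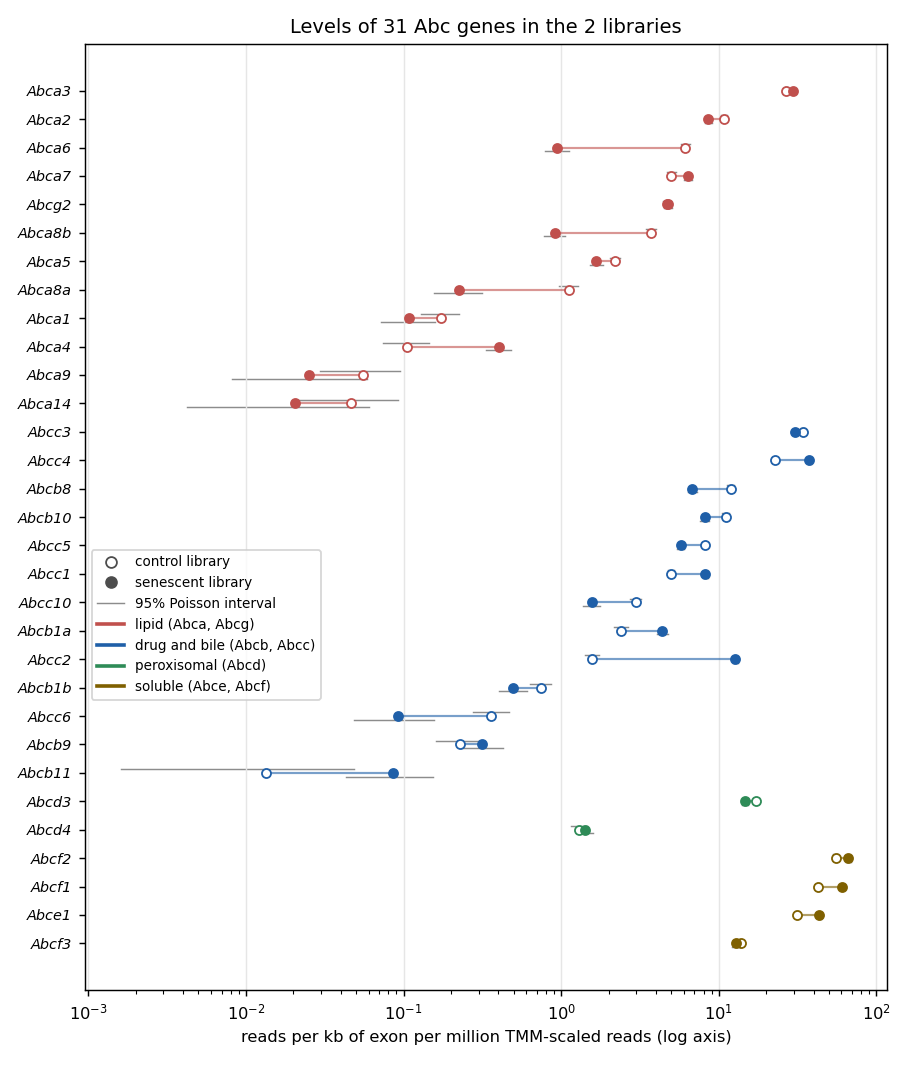
Level of 31 of the Abc genes in RPKM on TMM-scaled library sizes, on a log axis, with open points for the control library, filled points for the senescent library and grey bars for the 95% Poisson interval of the count. The levels span from 0.0134 for Abcb11 in control cells to 66.4 for Abcf2 in senescent cells, and the longest lines between open and filled points belong to Abcc2, Abca6, Abcb11, Abca8a, Abca8b, Abcc6 and Abca4.

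The canalicular exporters held the largest ratio of the family. Abcc2 (ENSMUSG00000025194, chr19:43782192-43840740, plus strand, GRCm38), which exports conjugated bilirubin and glutathione conjugates into bile, rose from 390 control reads to 2690 senescent reads. Its level was 1.57 in control and 12.7 in senescent cells, and its place among the 33 members by level went from 23 to 9. The log2 ratio was 3.01 (95% interval 2.86 to 3.17), or 8.07-fold, the 68th highest of 14383 genes. Of the reads of Abcc2 and Abcc3 together, Abcc2 took 6.45% (exact 95% interval 5.84 to 7.09) in control and 38.5% (37.3 to 39.6) in senescent cells. Abcc3, a basolateral exporter of glucuronides, had 5660 and 4303 reads (log2 ratio -0.17, interval -0.22 to -0.11), so within this pair of hepatocyte conjugate exporters the canalicular member was the one past the threshold.

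The start region of Abcc2 is shown because it is the member with the largest ratio, and that of Abca4 because it is the other higher member with over 100 reads. The sequences are RefSeq windows on GRCm38.p6, from 250 bases before to 50 bases after the start site, read 5′ to 3′ on the gene's strand, at chr19:43782058-43782357 (plus strand) and chr3:122044210-122044509 (plus strand). Both strands were searched for TGACNNNGC (the core of the antioxidant response element), AGGTCA and AGTTCA (half-sites of nuclear receptors), TATAAA and CCAAT, and the capitals mark the matches, which do not overlap here.
Abcc2: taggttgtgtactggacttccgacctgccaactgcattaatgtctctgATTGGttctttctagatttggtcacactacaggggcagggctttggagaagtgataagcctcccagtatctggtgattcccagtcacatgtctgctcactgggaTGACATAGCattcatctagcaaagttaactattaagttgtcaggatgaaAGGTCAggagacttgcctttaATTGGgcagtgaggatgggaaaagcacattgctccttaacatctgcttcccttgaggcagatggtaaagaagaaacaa
Abca4: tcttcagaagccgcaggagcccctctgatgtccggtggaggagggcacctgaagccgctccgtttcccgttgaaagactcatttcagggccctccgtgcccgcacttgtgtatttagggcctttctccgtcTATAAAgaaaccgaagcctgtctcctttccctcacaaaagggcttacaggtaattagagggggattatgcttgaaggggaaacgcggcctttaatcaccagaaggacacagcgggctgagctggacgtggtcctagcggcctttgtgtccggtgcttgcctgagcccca

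The Abcc2 window held TGACNNNGC with its first base at -98 from the start site, AGGTCA at -49, and CCAAT on the opposite strand at -202 and -28. The Abca4 window held TATAAA at -119. TGACNNNGC was found in 12.4% of the 32851 mouse windows of this length, AGGTCA in 16.3%, AGTTCA in 14.0%, TATAAA in 13.6% and CCAAT in 37.4%. Of the 33 members, 25 had a window in this set, with 31 windows in all, of which 7 held TGACNNNGC, 6 AGGTCA, 7 AGTTCA, 4 TATAAA and 8 CCAAT. Some members had several windows, and these matches belonged to 5, 4, 7, 3 and 7 members in the same order. These matches describe the letters of the windows and no binding was measured.

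Abcb11 (ENSMUSG00000027048), the bile salt export pump, had 2 control and 11 senescent reads, at the lower end of what was counted. Its log2 ratio was 2.18, with an interval from 0.49 to 5.90, and it lost its call with a prior count of 5 and with an assumed coefficient of variation of 0.4 between replicates. The exporters of biliary phospholipid and sterols were under the minimum, with Abcb4, which exports phosphatidylcholine, at 0 and 3 reads, and Abcg5 and Abcg8, which together secrete sterols, at 5 and 1 and at 1 and 3. Abcc12, of the Mrp group, had 0 and 7 reads. A list of 30 genes of mature liver, chosen after values of some of them were seen, moved with these low counts. Of the 30, 15 were at 0 in the control library and all 15 had reads in the senescent library, 162 in sum, among them Cyp2e1 at 0 and 50 (at least 19.5-fold higher against a floor of 3 reads in the control library) and Serpina3k at 0 and 19. None of the 30 was at 0 in the senescent library, yet the summed level of the list was 439 control and 152 senescent CPM, mostly Hpx at 11825 and 3390 reads. The part of these genes in the Abcb11 value was not tested.

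The P-glycoproteins, which export drugs at the apical membrane and are encoded by a pair of genes in the mouse, stood on opposite sides of 0. Abcb1a (ENSMUSG00000040584) had 383 control and 596 senescent reads (log2 ratio 0.87, interval 0.68 to 1.06). Abcb1b (ENSMUSG00000028970) had 172 and 98 (log2 ratio -0.58, interval -0.95 to -0.22). Neither passed the threshold, and their intervals did not overlap. Abcb1a made up 69.0% (65.0 to 72.8) of the 555 reads of the pair in control cells and 85.9% (83.1 to 88.4) of 694 in senescent cells. The 2 transcripts share stretches of at least 95% identity over 325 bases, or 6.50%, of the Abcb1a transcript, and reads from these stretches may be assigned to either gene. Part of the Abcb1a exons, 10.1%, lies opposite the transcript Gm42686, which has no count here.

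Of the 6 broader Mrp proteins, which export organic anions, 2 lay above 0 and 4 below. Abcc1, an exporter of glutathione conjugates and leukotriene C4, had 2190 control and 3079 senescent reads (log2 ratio 0.72, interval 0.64 to 0.80). Abcc4, which exports cyclic nucleotides, had 4244 and 5955 reads (log2 ratio 0.72, interval 0.66 to 0.78). Abcc5, another cyclic nucleotide exporter, had 2525 and 1522 reads (log2 ratio -0.50, interval -0.59 to -0.41). Both intervals above 0 thus belonged to well-counted genes, and neither gene passed 1.5. Of the reads of Abcc1 and Abcc5 together, Abcc1 took 46.4% (45.0 to 47.9) in control and 66.9% (65.5 to 68.3) in senescent cells. Abcc10, also known as Mrp7, had 591 and 266 reads (log2 ratio -0.92, interval -1.14 to -0.71). Its exons share 51 bases, or 0.74% of their length, with Dlk2 on the opposite strand, which had 1254 and 496 reads. Whether the counting used strand is not given in the sources used here. Abcc6, which is needed for the release of ATP from liver, had 60 control and 13 senescent reads and was the only drug and bile member lower past the threshold (log2 ratio -1.90, interval -2.97 to -1.10). The potassium channel regulators Abcc8 and Abcc9 were under the minimum with 6 and 2 and with 0 and 1 reads.

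Among the mitochondrial transporters, Abcb8 and Abcb10 had intervals below 0 and neither passed the threshold. Abcb8, of the mitochondrial inner membrane, had 1639 and 800 reads (log2 ratio -0.80, interval -0.93 to -0.68). Abcb10, which serves heme synthesis, had 1383 and 870 reads (log2 ratio -0.44, interval -0.56 to -0.32). Part of its exons, 10.3%, lies opposite the transcript Gm45890, which has no count here. The summed level of the drug and bile transporters, to which Abcb8 and Abcb10 were assigned by symbol, was 117 in control and 126 in senescent cells. Abcb6, which transports porphyrins, had 5 and 2 reads. Abcb5 had 2 and 3 reads. Abcb9, a peptide transporter of lysosomes, had 37 and 44 reads, and its interval held 0 (log2 ratio 0.47, -0.18 to 1.15).

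Among the lipid transporters, the lower genes came from a cluster of 5 Abca genes on chromosome 11 (chr11:109932190-110337716, 405527 bases, all on the minus strand), in the order Abca8b, Abca8a, Abca9, Abca6 and Abca5. Abca6 (ENSMUSG00000044749) had 961 control and 126 senescent reads and a level of 6.12 and 0.941. Its log2 ratio was -2.69 (-2.98 to -2.43), or 6.46-fold lower, the 204th lowest of all genes. Abca8b (ENSMUSG00000020620) had 802 and 167 reads (log2 ratio -2.03, interval -2.28 to -1.79). Abca8a (ENSMUSG00000041828) had 203 and 35 reads (log2 ratio -2.28, interval -2.87 to -1.78). The intervals of Abca8a overlapped those of both other genes, and those of Abca6 and Abca8b did not overlap each other.

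The outer gene Abca5 had 733 control and 475 senescent reads (log2 ratio -0.40, interval -0.57 to -0.23), well short of the threshold and apart from the intervals of the 3 lower genes. Abca9 had 13 and 5 reads, and its interval from -2.99 to 0.43 reached from the values of its neighbours past 0. Over the cluster, the reads summed to 2712 in control and 808 in senescent cells. Abca8a and Abca8b are close copies, but the stretches of at least 95% identity cover 217 bases, or 2.92%, of the Abca8b transcript.

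The start regions of Abca8a and Abca8b are shown because these neighbours had log2 ratios with overlapping intervals. They lie at chr11:110095888-110096187 and chr11:109995796-109996095, both on the minus strand, and come from the same RefSeq set with capitals for the same motifs.
Abca8a: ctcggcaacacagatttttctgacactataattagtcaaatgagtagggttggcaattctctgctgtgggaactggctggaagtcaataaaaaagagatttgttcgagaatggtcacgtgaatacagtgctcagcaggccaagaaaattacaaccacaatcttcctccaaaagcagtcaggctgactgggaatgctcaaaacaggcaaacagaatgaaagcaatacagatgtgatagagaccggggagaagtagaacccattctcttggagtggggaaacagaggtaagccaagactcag
Abca8b: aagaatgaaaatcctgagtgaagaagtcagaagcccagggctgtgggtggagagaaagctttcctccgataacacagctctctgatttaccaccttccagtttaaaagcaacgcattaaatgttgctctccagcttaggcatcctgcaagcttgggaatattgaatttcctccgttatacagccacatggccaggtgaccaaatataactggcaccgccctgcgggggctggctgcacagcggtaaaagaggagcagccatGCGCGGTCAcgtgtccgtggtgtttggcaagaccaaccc

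None of the motifs was found in the Abca8a window. The Abca8b window held TGACNNNGC on the opposite strand at 11 bases after the start site. Besides Abcc2, this motif was also found in windows of Abcb1a, Abcc10 and Abcc4, which were not called.

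The protein-coding genes within 500 kb of the cluster were set beside it. Of 8 listed, 7 had at least 10 reads, 4 with intervals below 0 and 3 above, and their median log2 ratio was -0.26, beside -2.03 in the cluster. The nearest gene on the Abca8b side with at least 10 reads, Fam20a, which assists a kinase of secreted proteins, had 266 control and 56 senescent reads and was also lower, at -2.00 (-2.46 to -1.60). On the Abca5 side, Map2k6, a kinase of the p38 pathway, had 1278 and 559 reads (log2 ratio -0.96, interval -1.11 to -0.82). These neighbours are shown for their position and were not selected by function.

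**Figure D3:**
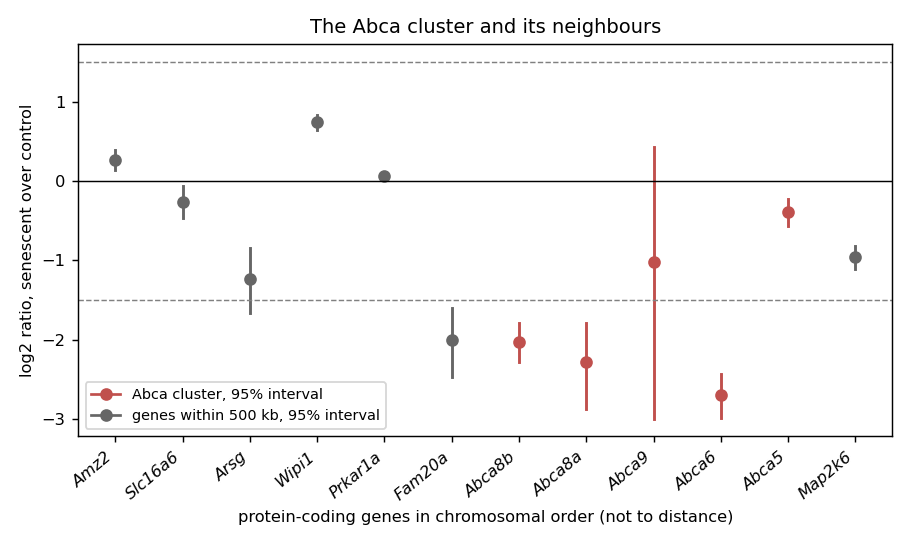
Log2 ratio of senescent over control reads, with 95% intervals of counting error, for the 5 Abca genes of the chromosome 11 cluster (red) and the 7 protein-coding genes with at least 10 reads within 500 kb of it (grey), in chromosomal order and not to distance. Abca8b, Abca8a and Abca6 lie below the dashed line at -1.5, as does the neighbour Fam20a at -2.00, while Abca5 lies at -0.40.

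The lipid transporters outside the cluster held Abca4, which moves retinoid conjugates and is best known from the retina. Abca4 (ENSMUSG00000028125) had 37 control and 120 senescent reads (log2 ratio 1.90, interval 1.38 to 2.50), or 3.72-fold, with a level of 0.106 and 0.402. It and Abcc6 were not called at a threshold of 2. The cholesterol exporters were not called. Abca1, which hands cholesterol and phospholipid to apolipoprotein A-I, had 52 and 28 reads (log2 ratio -0.65, interval -1.38 to 0.03), and at this depth no difference could be detected, although with total-count and upper-quartile scaling the interval lay below 0. Abca7, a related phospholipid exporter, had 981 and 1072 reads (log2 ratio 0.36, interval 0.23 to 0.48). Abcg1, which passes cholesterol to HDL, had 0 and 1 reads, both under the floor of 3 reads, or 0.107 control and 0.117 senescent CPM.

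Abca3, which loads phospholipid into lamellar bodies in the lung, had the most reads of the lipid class, 7303 in control and 6859 in senescent cells, with a level of 26.8 and 29.5 (log2 ratio 0.14, interval 0.09 to 0.19). The interval held 0 with total-count scaling. Part of its exons, 9.75%, lies opposite the transcript D330041H03Rik, which had 204 and 149 reads. Abca2, which acts in lysosomes and endosomes, had 2620 and 1780 reads (log2 ratio -0.33, interval -0.42 to -0.24). Abcg2, an exporter of drugs, urate and porphyrins that was placed in the lipid class by its symbol, had 1112 and 964 reads (log2 ratio 0.02, interval -0.10 to 0.15). Abca14 had 8 and 3 reads, and its interval held 0. Of the lipid symbols under the minimum, Abca12, Abca13, Abca15, Abca16 and Abcg3 were at 0 in both libraries, Abca17 had 2 and 1 reads and Abcg4 2 and 7.

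None of the peroxisomal transporters was called. Abcd3, known as PMP70, which imports branched acyl-CoA and bile acid intermediates, had 3321 control and 2402 senescent reads and a level of 17.3 and 14.7. Its log2 ratio was -0.24 (-0.31 to -0.16). Abcd4, a relative that serves lysosomal release of cobalamin, had 301 and 283 reads (log2 ratio 0.14, interval -0.10 to 0.38). Abcd2 had 2 and 0 reads.

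Of the soluble proteins, 3 of 4 had intervals above 0 and none passed the threshold. Abce1, which splits ribosomes after termination, had 5477 control and 6467 senescent reads (log2 ratio 0.47, interval 0.42 to 0.52). Abcf1, a ribosome-associated protein, had 5488 and 6571 reads (log2 ratio 0.49, interval 0.44 to 0.54). Abcf2 had 4111 and 4232 reads (log2 ratio 0.27, interval 0.21 to 0.33). Abcf3 differed from them in that its interval held 0, with 1426 and 1131 reads (log2 ratio -0.10, interval -0.22 to 0.01), and it lay below 0 with total-count and upper-quartile scaling.

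**Figure D4:**
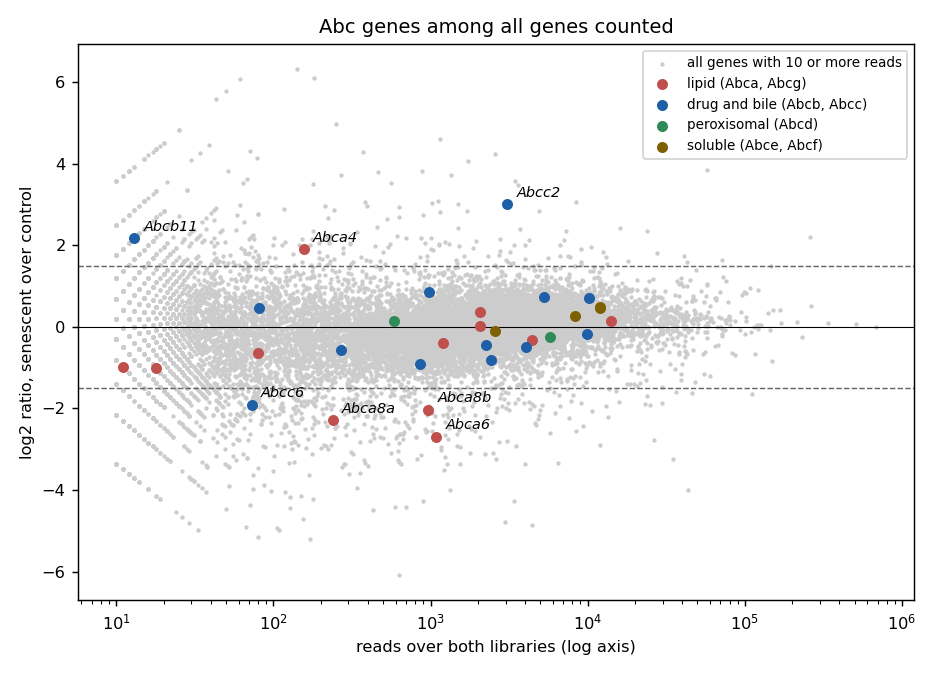
Log2 ratio of senescent over control reads against the reads of both libraries on a log axis, for the 14383 genes with at least 10 reads (grey) and 31 of the Abc genes in the colours of their classes, with dashed lines at the threshold of 1.5. The called genes lie outside the dashed lines. Abcc2, Abca4, Abca6, Abca8a and Abca8b have over 100 reads, while Abcb11 and Abcc6 lie where few reads widen the spread.

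The genes that work with the transporters were described list by list, each over its genes with at least 10 reads. Over all genes, 2.71% were higher and 5.60% lower, with 34.0% of intervals above 0 and 34.6% below. Of 14 counted partners of lipid export, 1 was lower and none higher, with 8 intervals above 0, 3 below and a median of 0.44. The lower gene was Apoa1, the acceptor of Abca1 lipid, with 2026 control and 197 senescent reads (log2 ratio -3.13, interval -3.35 to -2.92). Of the 19 genes of bile acid synthesis and uptake only 7 had at least 10 reads, of which 3 were lower and none higher. They were Akr1d1, a reductase of bile acid synthesis, at 339 and 80 reads (log2 ratio -1.84, -2.22 to -1.50), Slc10a2, a bile acid carrier of the apical membrane, at 382 and 105 (-1.63, -1.96 to -1.32), and Baat, which conjugates bile acids, at 19 and 1 (-3.16, -9.40 to -1.37). The 12 genes under 10 reads mostly stood the other way, with 7 at 0 in control and above 0 in senescent cells, at 32 reads in sum. Among these 7 were Slco1b2 at 0 and 9, Slc10a1 at 0 and 7 and Cyp7a1 at 0 and 7. Of all genes, 18882 had at least 1 read, with 17403 detected in control and 17592 in senescent cells. The median of the list was -1.46 over the 7 genes and 1.06 with a minimum of 1 read.

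Of 16 counted genes of drug metabolism and ion carriers, 3 were lower and none higher, with a median of -0.24. The called share was 18.75%, beside 8.31% of all genes. Sult1a1, which sulfates phenols, had 3256 control and 143 senescent reads (log2 ratio -4.27, interval -4.53 to -4.04). Ugt1a6a, which forms glucuronides, had 121 and 28 (-1.85, -2.53 to -1.28) and Gstm1, a glutathione transferase, 5686 and 1691 (-1.52, -1.60 to -1.44). All 3 make conjugates of the kind that Mrp proteins export.

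Of 28 counted peroxisomal genes, 2 were lower, Acox2 and Ehhadh of beta-oxidation, with log2 ratios of -2.94 and -1.73. In the same list Slc27a2, an acyl-CoA synthetase that is also in the mature liver list, was higher with 0 control and 12 senescent reads, at least 4.69-fold. In either direction 10.7% of the list was called, beside 8.31% of all genes. The median of the list was -0.18, near the -0.24 of the peroxisomal transporters. None of 24 counted genes of heme and iron-sulfur cluster assembly was called, and 15 intervals lay below 0 and 6 above, with a median of -0.21.

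None of 13 counted genes of ribosome recycling and translation initiation was called, but 12 had intervals above 0 and 1 below, with a median of 0.59 beside the 0.37 of the soluble ABC proteins. The share of all genes with an interval above 0 was 34.0%, as given for the members.

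The nuclear receptors and other factors known to control Abc genes were mostly within the threshold, with 3 of 20 lower, none higher and a median of -0.22. The called share was 15.0%, beside 8.31% of all genes. Nr5a2, a regulator of bile acid synthesis, had 349 control and 30 senescent reads (-3.27, -3.90 to -2.77). The drug-sensing receptors Nr1i2 (PXR) and Nr1i3 (CAR), under which Abcc2 is known to be induced, had 45 and 8 reads (-2.14, -3.56 to -1.16) and 63 and 16 reads (-1.69, -2.64 to -0.94). The part of these receptors in the Abcc2 value was not tested.

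Nr1h4, the bile acid receptor FXR, had 6458 and 5262 reads (log2 ratio -0.07, interval -0.12 to -0.01). Nfe2l2 (NRF2), which acts through the antioxidant response element, had 5407 and 3940 reads (log2 ratio -0.23, interval -0.29 to -0.17). Of the liver X receptors, which control the cholesterol exporters, Nr1h3 had 1126 and 427 reads (-1.17, -1.33 to -1.01) and Nr1h2 2708 and 2628 (0.19, 0.11 to 0.26). RNA level does not measure the activity of these factors.

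**Figure D5:**
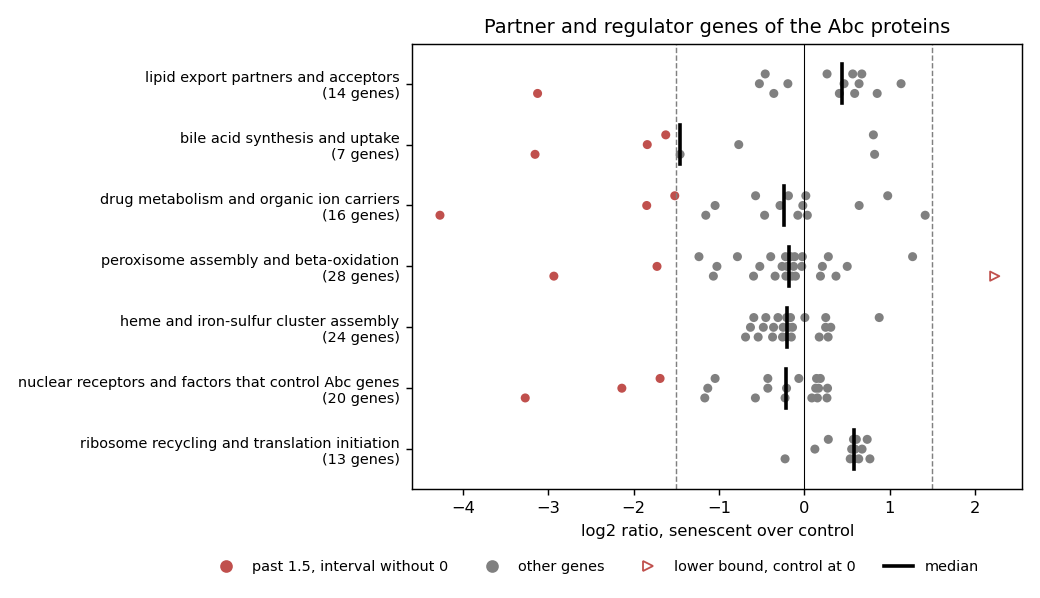
Log2 ratio of senescent over control reads for the genes with at least 10 reads in 7 lists of partners and regulators of the Abc proteins, with black bars at the medians, dashed lines at the threshold of 1.5 and red points for genes past it; the open triangle is Slc27a2 at its lower bound, its control reads being 0. The medians run from -1.46 for bile acid synthesis and uptake to 0.59 for ribosome recycling and translation initiation, the first of them being 1.06 when genes with as little as 1 read are let in.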

How the data were processed

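RNA of 3 samples per condition was pooled into 1 library. The authors deposited un-normalized counts of reads per gene from poly(A)-selected, random-primed libraries, listed by Ensembl identifier. The submitters' processing notes name mm10, CASAVA, STAR, DESeq2 and edgeR without role or version. The counter, the annotation and the use of strand are not given in the sources used here. Each count column was matched to its condition through the initials of the title of the sample. Symbols and positions came from GENCODE M21 and were found for 97.8% of genes. Windows around start sites came from RefSeq (GRCm38.p6).

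Counts were scaled with TMM factors (edgeR 4.0.16, R 4.3.3), with DESeq2 1.42.0 size factors, upper quartiles and total counts as alternatives. Ratios (prior count 1, in proportion to library size) and exact 95% Clopper-Pearson intervals of the senescent share were computed with Python 3.11.15, pandas 2.3.3, numpy 2.4.6 and scipy 1.17.1, shared sequence with blastn 2.17.0 (at least 100 bases, 95% identity) and plots with matplotlib 3.10.9. The ratio was tested on simulated data, with limits set for recovery and interval coverage only where no variation between replicates was simulated. That test therefore does not stand in for the replicates missing here. The threshold of 1.5 is that of the study. With 1 library per condition no p-value was computed. A count of 3 reads served as the floor. Each called member, the 4 highest levels, each subgroup and the called genes of each list are named. Results of 2 members are not reported here by gene. The members and the lists were chosen with earlier results of these data known.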

Additional observations from a re-analysis of the deposited data

How the results depend on the processing

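Over 11 alternatives, 342 of 357 member ratios stayed the same, 11 moved and 4 lost their call. Same meant a kept call for a called member, and for the others a value within the main counting interval. Changes of the minimum, the threshold and the assumed variation cannot alter a ratio, so many of the 357 could not move. All 11 that moved did so with total-count scaling. No called ratio changed sign, and Abcg2, which was not called, changed from 0.02 to -0.08 with total-count and to -0.02 with upper-quartile scaling. The higher members were 4 in place of 3 with a minimum of 1 read, which let in Abcc12 (0 and 7 reads). The drug and bile transporters had 1 higher member in place of 2 with a prior count of 5, with an assumed coefficient of variation of 0.4 between replicates and with a minimum of 100 reads, since Abcb11 dropped out. They had 0 lower members in place of 1 (Abcc6) with the minimum of 100 reads and at a threshold of 2, where the lipid transporters also had 0 higher in place of 1 (Abca4). The median of the drug and bile transporters was 0.15 with a minimum of 1 read and -0.44 with a minimum of 100, the added and removed genes being the low ones. The median of the bile acid list was 1.06 with a minimum of 1 read, in place of -1.46, and that of the nuclear receptors -0.07 with a minimum of 100, in place of -0.22. Total-count scaling moved the median of all genes by -0.11, and with it the medians of the drug and bile, peroxisomal and soluble members to -0.41, -0.34 and 0.26. The interval lay on the same side under every scaling for 30 members. It lay below 0 for Abca1 and Abcf3 with total-count and upper-quartile scaling and held 0 for Abca3 with total-count scaling. The summed level was 355.6 in control and 367.3 in senescent cells with total-count scaling, and 443 and 494 with the longest transcript as the length.

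Of the partner lists and the ABC genes with other symbols, 2 genes were higher and 13 lower. The higher count was 7 with a minimum of 1 read, 1 with a minimum of 100 and 5 at a threshold of 1, and the lower count was 20 at a threshold of 1 and 6 at a threshold of 2. Over all genes, 390 higher and 805 lower became 732 and 1435 at a threshold of 1, 219 and 460 at a threshold of 2, 141 and 395 with a minimum of 100 reads, and 259 higher with a prior count of 5. No paired analysis was possible because each condition had 1 library, and for the same reason no library could be left out and neither edgeR nor DESeq2 could test a gene. Counting error alone let the values of Abcb11, Abcc6, Abca4, Abca9 and Abca14 lie on either side of the threshold.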

Other observations

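ABC genes with other symbols also differed between the libraries. Cftr, a chloride channel built on the ABC plan, had 44 control and 176 senescent reads (log2 ratio 2.20, 95% interval of counting error 1.75 to 2.74). Cftr also served as a bile duct marker, and of the 6 bile duct markers with at least 10 reads it was the 1 higher and none was lower. Tap2, which with Tap1 carries peptides for presentation on MHC class I, had 327 and 73 reads (log2 ratio -1.92, interval -2.32 to -1.56). Tap1 had 161 and 137 reads (log2 ratio 0.00, interval -0.34 to 0.33), so the 2 subunits of this transporter had intervals that did not overlap.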
